A study of Mus musculus with 60 samples.

Results

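The lungs of mice that had inhaled an aerosol of superparamagnetic iron oxide (SPIO) nanoparticles were compared with those of sham controls at the end of the exposure, on 10 of the 60 arrays of the series. All animals were male mice of the inbred Balb/c strain with no transgene or deletion named in the labels. Both arms were exposed for 4 h, by nose only, to humidified filtered air mixed with helium and oxygen. For the 5 SPIO nanoparticle exposed mice that atmosphere carried the particles, and for the 5 sham controls it carried none. The labels give a total SPIO mass of 365 µg and 0 µg for these arms. In the study 365 µg is the inhaled mass, calculated from breathing, exposure time and aerosol concentration, and not the mass deposited in the lung. Lungs were taken at 0 h, and total RNA of the right diaphragmatic lobe of each mouse went on 1 array of its own. The other 50 arrays, from 6 to 168 h, entered the fit that estimates the spread and were used for the comparisons with later times. Values are log2 expression after robust multi-array averaging (RMA), so differences between them are log2 fold changes, and of several probe sets for a gene the brightest, by its average across the 60 arrays, was used. Where a pair of 5 values is given for a gene, the first 5 are those of sham mice 1 to 5 and the others those of SPIO mice 1 to 5. Error is the SE of the limma fit, and adjusted p is by the Benjamini-Hochberg method over all genes.

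Inhaled particles meet the airway and alveolar epithelium and the resident macrophages first. These cells can release CXC chemokines, which attract neutrophils through the receptor CXCR2, and CC chemokines, which attract monocytes and lymphocytes, and the transcription factor NF-kB drives many of these genes. Iron from dissolving particles enters the same pools as iron from heme, which heme oxygenase 1 releases, and cells adjust the transferrin receptor and ferritin to the iron they hold. Heat shock chaperones keep proteins folded under stress, and circadian clock genes run a daily loop of activators and repressors in lung as in other tissues.

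Sham mouse 1 stood apart before any comparison was made. Its mean over 21 hepatocyte markers was 9.76, against 4.56 to 7.88 on the other 59 arrays of the series, and albumin (Alb) read 14.02 against 5.27 to 11.35. Skeletal muscle markers averaged 7.71 (other arrays 4.88 to 5.88) and adipose markers 8.89 (5.69 to 8.09). Xist, the RNA that coats the inactive X chromosome of females, read 11.94 against 5.16 to 6.02, while the Y-linked genes Eif2s3y, Kdm5d and Uty lay within the range of the other arrays. Changes and list counts are therefore mostly given with all 10 mice and, beside them, without sham mouse 1, and a call of a named gene that was lost without it is named as such. SPIO mouse 1 had a hepatocyte mean of 7.02, above the 4.89 to 5.46 of the other exposed mice. Among the 60 arrays 0 pairs held identical values. The mean 3 prime minus 5 prime difference of the Actb and Gapdh control probe sets, a sign of RNA quality, ran from 0.45 to 0.60 in sham controls and from 0.47 to 0.66 in exposed mice.

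Of 18193 genes, 667 passed an adjusted p of 0.05 between SPIO nanoparticle exposed mice and sham controls in limma, 465 of them higher after SPIO (2.56% of genes tested) and 202 lower (1.11%). Their median change was 0.42 on the log2 scale, and 44 changed by at least 1 log2 unit, 29 higher and 15 lower. The 5 values of each arm did not overlap for 568 genes that were higher (3.12%) and 206 that were lower (1.13%). Without sham mouse 1 the fit called 475 genes higher (2.61%) and 307 lower (1.69%), and 549 genes were called both ways. The median change over all genes was 0.03, and 0.03 without sham mouse 1. Of the called genes 69.7% were higher. This share was 80.1% after the values were quantile normalized again, 66.7% with the array medians set equal, 61.4% with the mean of each gene's probe sets and 60.7% without sham mouse 1, and it fell to 51.9% when all probe sets were tested (614 higher and 570 lower). The count rested on single mice: it was 290 without SPIO mouse 5, 342 without SPIO mouse 3, 342 without sham mouse 3 and 389 without sham mouse 4. With the 10 arrays of 0 h fitted alone, 138 genes passed. At an unadjusted p under 0.05 stood 3227 genes, 17.7% of those tested, and counts of list members at that level are read beside this share. Counts of called list members are likewise read beside the 2.56% higher and 1.11% lower. Of 101 called genes named in the text, 53 passed in all 10 fits that left out 1 mouse and 42 with the 0 h arrays alone. The methods' test takes unequal variances over the 12 groups and then Tukey's comparison.

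The CXC chemokines that attract neutrophils included the gene with the largest change. Cxcl5 read 4.25, 4.22, 4.52, 5.59 and 6.53 in sham mice 1 to 5 and 8.54, 8.47, 6.85, 9.05 and 8.85 in SPIO mice 1 to 5. The arms did not overlap, although sham mice 4 and 5 were above the other sham controls and SPIO mouse 3 was the lowest exposed mouse. Cxcl5 rose by 3.33 ± 0.52 (SE, n = 5 against 5, adjusted p = 9.56e-05, 3.14 without sham mouse 1), the largest change of any gene that passed. Cxcl3 was near the bottom of the scale in every sham control, at 3.15, 2.60, 3.02, 2.80 and 3.02, and read 4.46, 5.23, 3.88, 6.11 and 5.96 after SPIO, again with no overlap and with SPIO mouse 3 lowest. It rose by 2.21 ± 0.28 (SE, n = 5 against 5, adjusted p = 1.4e-06, 2.26 without sham mouse 1). Cxcl1 values were 7.16, 7.25, 7.91, 8.96 and 8.19 in sham controls against 9.70, 10.36, 8.60, 10.30 and 9.83. Sham mouse 4 lay above SPIO mouse 3, and the rise was 1.87 ± 0.29 (SE, n = 5 against 5, adjusted p = 9.56e-05, 1.68 without sham mouse 1). Cxcl2 was 4.48, 5.01, 5.41, 6.46 and 5.66 in sham controls and 6.87, 7.36, 5.83, 7.22 and 7.13 in exposed mice. Here too the arms met only at SPIO mouse 3, which lay below sham mouse 4, and the gene rose by 1.48 ± 0.30 (SE, n = 5 against 5, adjusted p = 0.00316, 1.25 without sham mouse 1). Without sham mouse 1 all 4 genes still passed. With the 0 h arrays alone Cxcl1 and Cxcl2 no longer passed. The epithelial chemokine Cxcl15 was high in both arms, at 12.94 to 13.63 in sham controls and 13.11 to 13.59 in exposed mice, and its difference of 0.14 (SE 0.09, adjusted p = 0.41, 0.25 without sham mouse 1) did not pass.

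Among the CC chemokines, Ccl12, a ligand of the monocyte receptor CCR2, read 4.48, 3.87, 3.96, 3.68 and 4.30 in sham controls and 4.68, 5.05, 6.59, 6.30 and 6.01 after SPIO. The arms did not overlap, and SPIO mice 3 to 5 were well above SPIO mice 1 and 2. Ccl12 rose by 1.67 ± 0.34 (SE, n = 5 against 5, adjusted p = 0.00318, 1.77 without sham mouse 1). Ccl3, a macrophage inflammatory protein, was tightly grouped in both arms, at 4.67, 4.77, 4.47, 4.78 and 4.70 and 5.62, 5.76, 5.48, 6.03 and 6.17, and rose by 1.13 ± 0.22 (SE, n = 5 against 5, adjusted p = 0.00166, 1.13 without sham mouse 1). Smaller rises passed for Ccl24, an eotaxin, by 0.50 (SE 0.13, adjusted p = 0.0169, 0.58 without sham mouse 1), and for Cx3cl1, the ligand of Cx3cr1, by 0.48 (SE 0.15, adjusted p = 0.0494, 0.49 without sham mouse 1), and Cx3cl1 passed in 0 of the 10 fits that left out 1 mouse. In all, 8 of the 34 chemokines measured were higher and 0 lower, with a median log2 fold change of 0.22 over the 34 against 0.03 over all genes, with 7 higher both without sham mouse 1 and by the methods' test. The mean of the 34 genes was 6.59 to 6.66 in sham controls and 6.86 to 7.28 in exposed mice. Ccl20 differed by 1.13 (SE 0.37, adjusted p = 0.0695, 0.87 without sham mouse 1), Ccl9 by 0.45 (SE 0.25, adjusted p = 0.331, 0.51 without sham mouse 1) and Ccl17 by 0.24 (SE 0.19, adjusted p = 0.518, 0.19 without sham mouse 1), and these 3 did not pass. Ccl2 was 5.36, 5.15, 5.31, 5.21 and 4.99 in sham controls and 5.29, 5.19, 5.39, 5.40 and 5.21 in exposed mice, so the arms overlapped.

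**Figure D1:**
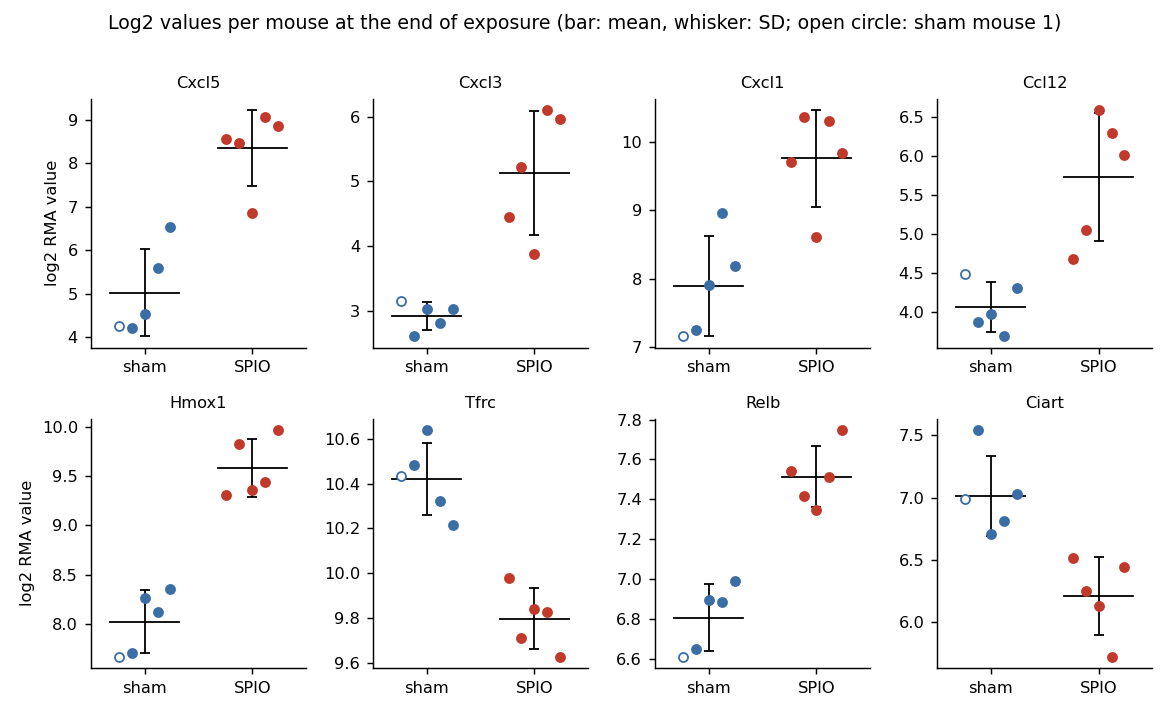
Log2 RMA values (y axis, each panel on its own range) of 8 genes in the 5 sham controls (blue) and the 5 SPIO nanoparticle exposed mice (red) at 0 h, with bars for the mean, whiskers for the SD and an open circle for sham mouse 1. The arms overlap for Cxcl1, where sham mouse 4 at 8.96 lies above SPIO mouse 3 at 8.60, and for none of the other 7 genes drawn.

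Of 23 genes of the NF-kB pathway and its feedback inhibitors 6 rose, by smaller amounts than the 4 raised CXC chemokines, and 0 fell, with a median over the 23 of 0.29 (5 higher and 0 lower without sham mouse 1). Relb, a subunit of the noncanonical pathway, read 6.61, 6.65, 6.90, 6.88 and 6.99 in sham controls and 7.54, 7.42, 7.34, 7.51 and 7.75 after SPIO, a rise of 0.71 ± 0.13 (SE, n = 5 against 5, adjusted p = 0.000746, 0.66 without sham mouse 1). Tnip1, an inhibitor that works with A20, was 8.70, 8.70, 8.72, 8.87 and 8.75 and 9.28, 9.22, 9.06, 9.10 and 9.14, and rose by 0.41 ± 0.06 (SE, n = 5 against 5, adjusted p = 9.56e-05, 0.40 without sham mouse 1). Tnfaip3, which encodes A20, went from 8.32, 8.67, 8.76, 8.69 and 8.68 to 9.37, 9.17, 9.05, 9.13 and 9.30, a rise of 0.58 ± 0.10 (SE, n = 5 against 5, adjusted p = 0.000804, 0.50 without sham mouse 1). The arms overlapped for none of these 3 genes. Rela, the p65 subunit, rose by 0.33 (SE 0.06, adjusted p = 0.000888, 0.32 without sham mouse 1), the apoptosis inhibitor Birc3 by 0.47 (SE 0.12, adjusted p = 0.0125, 0.38 without sham mouse 1) and the nuclear regulator Nfkbiz by 0.50 (SE 0.14, adjusted p = 0.0334, 0.38 without sham mouse 1). Nfkbiz was no longer called without sham mouse 1, Birc3 was not called without SPIO mouse 5 (0.40), and Rela, Birc3 and Nfkbiz did not pass with the 0 h arrays alone. Other probe sets of Nfkbiz differed by 0.08 and 0.12. Over the 32 cytokines, colony-stimulating factors and their receptors limma called 0, with 7 at an unadjusted p under 0.05 against 17.7% of all genes, and the methods' test and the fit without sham mouse 1 also called 0. Il6 read 3.23, 3.21, 3.33, 3.15 and 3.0 in sham controls and 3.17, 4.39, 3.46, 3.56 and 3.53 in exposed mice, with SPIO mouse 2 the highest, and Csf2 differed by 0.40 (SE 0.15, adjusted p = 0.115, 0.39 without sham mouse 1).

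Heme oxygenase 1 (Hmox1), which breaks heme down to iron, biliverdin and carbon monoxide, had the smallest adjusted p of all genes. It read 7.67, 7.71, 8.26, 8.12 and 8.36 in sham controls and 9.31, 9.83, 9.36, 9.44 and 9.96 after SPIO. The lowest exposed mouse was above the highest sham control, and Hmox1 rose by 1.56 ± 0.18 (SE, n = 5 against 5, adjusted p = 2.18e-07, 1.47 without sham mouse 1). Tfrc, the transferrin receptor through which cells take up iron, moved the other way, from 10.43, 10.48, 10.64, 10.32 and 10.22 to 9.98, 9.71, 9.84, 9.83 and 9.63 with no overlap, and changed by -0.62 ± 0.12 (SE, n = 5 against 5, adjusted p = 0.00134, -0.62 without sham mouse 1). Alas1, the first enzyme of heme synthesis, was 11.75, 12.17, 11.86, 11.76 and 11.78 in sham controls and 11.32, 11.38, 11.59, 11.57 and 11.37 after SPIO, also without overlap. It changed by -0.42 ± 0.10 (SE, n = 5 against 5, adjusted p = 0.00943, -0.45 without sham mouse 1) and did not pass with the 0 h arrays alone. The mitochondrial iron carrier Slc25a28 rose by 0.31 (SE 0.08, adjusted p = 0.0255, 0.28 without sham mouse 1) and was not called without sham mouse 1 or with the 0 h arrays alone. Of 20 heme turnover genes measured 1 was higher and 1 lower (median -0.05, 2 higher and 1 lower without sham mouse 1), and of 28 iron genes 1 was higher and 1 lower (median 0.00028, 0 higher and 1 lower without sham mouse 1). The ferritin heavy chain Fth1 was near the top of the scale in both arms, at 14.16, 14.33, 14.34, 14.35 and 14.28 and 14.30, 14.32, 14.31, 14.33 and 14.33, and overlapped.

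Of 34 genes measured under the oxidant-responsive factor NRF2, 10 stood at an unadjusted p under 0.05 in limma, against 17.7% of all genes. Of the 34, 3 were called higher and 0 lower, with a median of 0.06 (3 higher and 1 lower without sham mouse 1). Besides Hmox1 these were Txnrd1 (thioredoxin reductase 1), by 0.35 (SE 0.09, adjusted p = 0.0174, 0.29 without sham mouse 1), and Gpx4 (glutathione peroxidase 4), by 0.20 (SE 0.06, adjusted p = 0.0353, 0.24 without sham mouse 1). Txnrd1 read 9.60, 9.76, 9.87, 9.71 and 10.22 in sham controls and 10.14, 10.04, 10.24, 10.18 and 10.31 in exposed mice and was not called without sham mouse 1. Its mean over all probe sets differed by -0.15, the opposite direction. Gpx4 stayed past the threshold in 2 of the 10 fits that each left out 1 mouse. Srxn1 (sulfiredoxin) read 7.40, 7.40, 7.40, 7.27 and 7.45 and 7.48, 7.65, 7.72, 7.80 and 8.01, without overlap, and its difference of 0.35 (SE 0.12, adjusted p = 0.0875, 0.35 without sham mouse 1) did not pass. The classical targets Nqo1 and Gclm overlapped, at 6.16, 6.58, 6.55, 6.38 and 6.40 in sham controls and 6.22, 6.32, 6.47, 6.23 and 5.98 in exposed mice for Nqo1 and at 10.31, 10.42, 10.30, 10.18 and 10.21 and 10.30, 10.24, 10.30, 10.44 and 10.40 for Gclm. Of 15 metallothionein and zinc transport genes 0 were higher, and 1 was lower, the metal-responsive transcription factor Mtf1, at -0.34 (SE 0.10, adjusted p = 0.0473, -0.40 without sham mouse 1), which stayed past the threshold in 2 of the 10 fits that left out 1 mouse and was not called by the methods' test.

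B cell markers were the list with the most raised genes, where 2.56% of all genes were called higher. Of 20 B and plasma cell markers measured 12 were higher and 0 lower. In 13 of them every exposed mouse lay above every sham control, as for 3.12% of all genes. The median log2 fold change of the 20 markers was 0.87 (0.96 without sham mouse 1, when 12 were called with Cr2 and Mzb1 in place of Blk and Fcrl1, and 11 by the methods' test). Their mean level was 6.48 in sham mouse 1, 5.72 to 5.91 in the other sham controls and 6.63 to 7.17 in exposed mice. Bank1, an adaptor in signalling from the B cell receptor, read 6.12, 4.85, 4.62, 4.87 and 4.45 in sham controls and 6.83, 6.90, 7.92, 7.20 and 6.81 after SPIO. It rose by 2.15 ± 0.39 (SE, n = 5 against 5, adjusted p = 0.000946, 2.44 without sham mouse 1), and sham mouse 1 was the highest sham control and SPIO mouse 3 the highest exposed mouse. The same pair stood highest for Ms4a1, which encodes CD20, at 8.04, 6.25, 6.54, 6.10 and 6.06 and 8.31, 8.51, 8.93, 8.50 and 7.97. Ms4a1 rose by 1.85 ± 0.40 (SE, n = 5 against 5, adjusted p = 0.00487, 2.21 without sham mouse 1), and sham mouse 1 was the only sham control within the exposed range. Pou2af1, a B cell coactivator, rose by 1.65 (SE 0.33, adjusted p = 0.00266, 1.83 without sham mouse 1), the B cell receptor components Cd79a by 1.02 (SE 0.22, adjusted p = 0.0043, 1.10 without sham mouse 1) and Cd79b by 1.28 (SE 0.30, adjusted p = 0.00849, 1.43 without sham mouse 1), and the transcription factor Spib by 1.26 (SE 0.29, adjusted p = 0.00728, 1.41 without sham mouse 1).

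Further members of the list were Fcer2a, the low-affinity IgE receptor CD23, which rose by 1.31 (SE 0.31, adjusted p = 0.00957, 1.38 without sham mouse 1), and the receptors of the B cell survival factor family Tnfrsf13b, by 1.04 (SE 0.21, adjusted p = 0.0034, 1.12 without sham mouse 1), and Tnfrsf13c, by 0.89 (SE 0.24, adjusted p = 0.0272, 1.01 without sham mouse 1). Cd72 rose by 0.90 (SE 0.21, adjusted p = 0.00957, 0.97 without sham mouse 1). Blk, at 0.63 (SE 0.18, adjusted p = 0.0306, 0.60 without sham mouse 1), and Fcrl1, at 0.78 (SE 0.23, adjusted p = 0.0417, 0.79 without sham mouse 1), were not called without sham mouse 1. Outside the list, and named for their size, the IgM receptor Fcmr read 6.18, 5.55, 4.92, 5.12 and 5.20 in sham controls and 7.15, 7.49, 8.32, 7.29 and 7.27 after SPIO and rose by 2.11 ± 0.40 (SE, n = 5 against 5, adjusted p = 0.00144, 2.31 without sham mouse 1). The class II gene H2-Ob, whose protein tunes peptide loading in B cells, rose by 1.71 (SE 0.35, adjusted p = 0.00341, 1.80 without sham mouse 1) and the lymphocyte inhibitory receptor Btla by 1.11 (SE 0.23, adjusted p = 0.00368, 1.13 without sham mouse 1). Ighv14-2, an immunoglobulin heavy chain variable segment, read 6.06, 5.0, 4.89, 4.98 and 4.71 and 7.28, 7.04, 8.39, 7.08 and 7.33 and rose by 2.30 ± 0.45 (SE, n = 5 against 5, adjusted p = 0.00211, 2.53 without sham mouse 1). Its probe set may also bind near-identical segments, so the gene name is uncertain. The antibody genes of plasma cells included Ighm, which was 12.32, 9.47, 10.65, 9.18 and 8.74 in sham controls, with mouse 1 far the highest, and 9.85, 10.42, 9.41, 10.70 and 8.97 in exposed mice, a difference of -0.20 (SE 0.50, adjusted p = 0.869, 0.36 without sham mouse 1). In whole lobes a change in the number of cells of a type and a change in RNA per cell cannot be told apart.

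Over the times of the series, the B and plasma cell mean of the sham group was lowest at 0 h, at 5.97, against 6.20 to 6.85 in the later sham groups, while that of the exposed group at 0 h, 6.83, lay within the 6.44 to 7.36 of the later exposed groups. Bank1 behaved likewise, with a sham mean of 4.98 at 0 h and of 5.83 to 7.27 later. Sham means were also lowest at 0 h for T and NK cell markers (6.15, later 6.42 to 6.84), Ccl12 (4.06, later 4.72 to 5.71) and Ccn5 (6.91, later 7.705 to 9.41). The exposed means at 0 h were 6.63 (later 6.64 to 7.10), 5.73 (later 4.995 to 6.41) and 8.36 (later 8.62 to 9.39). Differences between times within an arm were not tested.

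Of 21 T and NK cell markers 6 were higher and 0 lower, 3 were higher by the methods' test, and the median was 0.52 (0.59 without sham mouse 1, when 6 were called with Thy1 and Ncr1 in place of Il7r and Cd3d). All 21 log2 fold changes were above 0, where the median over all genes was 0.03, and the mean level was 5.90 to 6.32 in sham controls and 6.49 to 6.87 in exposed mice. Members of a list were read on the same 10 mice, so counts of signs, here and below, are not independent. The adaptor Lat read 6.73, 6.57, 6.50, 6.42 and 6.40 and 7.12, 7.04, 7.32, 7.05 and 7.14, with no overlap, and rose by 0.61 ± 0.14 (SE, n = 5 against 5, adjusted p = 0.00957, 0.66 without sham mouse 1). Cd247, the zeta chain of the T cell receptor complex, was 5.72, 5.44, 5.46, 5.42 and 5.38 and 6.06, 6.01, 6.67, 6.23 and 6.36. It rose by 0.78 ± 0.19 (SE, n = 5 against 5, adjusted p = 0.0104, 0.84 without sham mouse 1), and was not called without SPIO mouse 3 (0.68), the highest exposed mouse. Il7r rose by 0.73 (SE 0.20, adjusted p = 0.0283, 0.59 without sham mouse 1), Cd5 by 0.82 (SE 0.23, adjusted p = 0.0343, 0.82 without sham mouse 1), Cd4 by 0.41 (SE 0.12, adjusted p = 0.0343, 0.48 without sham mouse 1) and Cd3d by 0.62 (SE 0.18, adjusted p = 0.042, 0.63 without sham mouse 1). Of these, Il7r, Cd5 and Cd4 each stayed past the threshold in 4 of the 10 fits that left out 1 mouse and Cd3d in 2, and none of the 4 passed with the 0 h arrays alone. Of 10 thymus and lymph node markers 1 was higher, Ccr7 (2 higher and 0 lower without sham mouse 1), and these markers averaged 5.31 to 5.57 in sham controls and 5.62 to 5.88 in exposed mice.

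Of the chemokine receptors, 4 of 21 were higher and 0 lower, with a median of 0.17 (4 higher and 0 lower without sham mouse 1, 3 higher and 0 lower by the methods' test). Ccr6, the receptor of Ccl20 on B cells and some T cells, read 6.60, 6.59, 6.58, 6.69 and 7.07 in sham controls and 7.70, 7.54, 7.99, 7.50 and 7.87 after SPIO. Sham mouse 5 was the highest sham control and still below every exposed mouse, and Ccr6 rose by 1.01 ± 0.16 (SE, n = 5 against 5, adjusted p = 9.56e-05, 0.99 without sham mouse 1). Ccr7, which guides lymphocytes and dendritic cells to lymph nodes, rose by 1.05 (SE 0.26, adjusted p = 0.0125, 1.09 without sham mouse 1) and was not called without sham mouse 5 (0.91) or SPIO mouse 3 (0.90). The monocyte receptor Cx3cr1 was 6.71, 6.21, 6.05, 5.93 and 6.41 and 7.10, 6.94, 6.91, 6.96 and 6.75 and rose by 0.67 (SE 0.16, adjusted p = 0.00952, 0.78 without sham mouse 1), and did not pass with the 0 h arrays alone. Ccr2 was wide in sham controls, at 8.86, 6.09, 6.86, 7.48 and 7.98, with mouse 1 highest, and narrow in exposed mice, at 8.82, 9.04, 8.74, 8.38 and 9.0. It rose by 1.34 (SE 0.39, adjusted p = 0.0353, 1.69 without sham mouse 1) and stayed past the threshold in 3 of the 10 fits that left out 1 mouse.

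Of 13 monocyte markers 3 were higher and 1 lower (median 0.48, 5 higher and 1 lower without sham mouse 1, 2 higher and 0 lower by the methods' test). The 3 higher were Ccr2, Cx3cr1 and Treml4, by 0.65 (SE 0.18, adjusted p = 0.031, 0.70 without sham mouse 1), and the lower one was Nr4a1, which is also an immediate early gene. Their mean was 8.50 in sham mouse 1, 7.84 to 8.09 in the other sham controls and 8.16 to 8.54 in exposed mice. Neutrophil markers did not pass: limma called 0 of 16 with all mice and without sham mouse 1, with 4 at an unadjusted p under 0.05 (17.7% of all genes), the methods' test called 0, and the median was -0.26 (-0.36 without sham mouse 1). Their mean ranged over 7.55 to 8.58 in sham controls and 7.40 to 8.59 in exposed mice. Cxcr2, the receptor of the raised CXC chemokines on neutrophils, read 7.96, 9.33, 9.14, 8.62 and 8.17 in sham controls and 8.17, 7.77, 7.50, 7.17 and 8.83 in exposed mice. Ngp and Camp, genes of immature neutrophils, were highest in SPIO mice 5 and 1, at 7.31, 6.29, 5.72, 6.49 and 8.88 for Ngp, against 5.83, 5.89, 6.22, 5.96 and 5.88 in sham controls. Of 20 alveolar and interstitial macrophage markers limma and the methods' test called 0, with 1 at an unadjusted p under 0.05, and the median was -0.13, with 0 called without sham mouse 1.

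**Figure D2:**
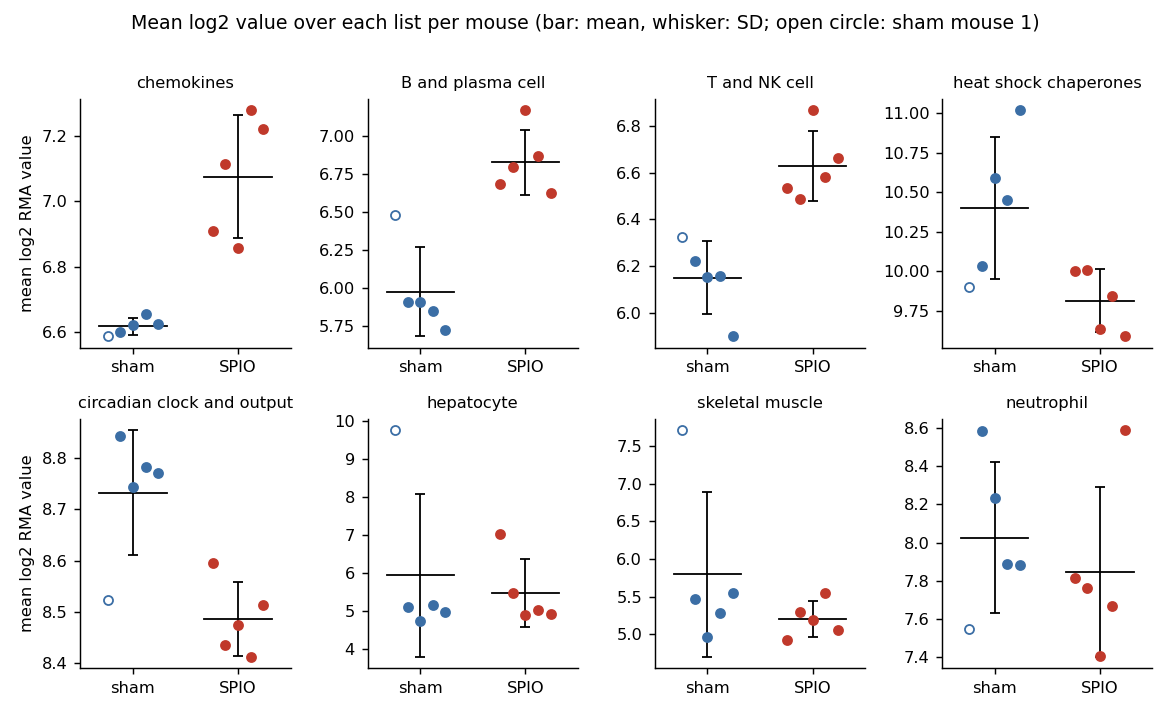
Mean log2 RMA value over the genes of 8 lists (y axis, each panel on its own range) in each sham control (blue) and SPIO nanoparticle exposed mouse (red) at 0 h, with bars for the mean, whiskers for the SD and an open circle for sham mouse 1. Chemokine, B cell and T cell means lie higher in all 5 exposed mice, neutrophil means overlap, and the hepatocyte and skeletal muscle panels show sham mouse 1 at 9.76 and 7.71.

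Heat shock chaperones, which refold damaged proteins, were the list with the most lowered genes. Of 29 measured 8 were lower and 0 higher, where 1.11% of all genes were lower and 2.56% higher. Of the 29, 28 had a log2 fold change below 0 and the median was -0.51 (-0.55 without sham mouse 1, with 11 called lower, and 6 lower by the methods' test). The inducible chaperone Hspa1a read 7.99, 10.33, 12.41, 11.97 and 12.53 in sham controls and 9.83, 9.64, 7.41, 8.32 and 7.60 after SPIO. Sham mice 3 to 5 were highest, SPIO mice 3 to 5 lowest, and sham mouse 1 lay among the exposed mice. Hspa1a changed by -2.49 ± 0.52 (SE, n = 5 against 5, adjusted p = 0.00397, -3.25 without sham mouse 1), and the arms did not overlap once sham mouse 1 was left out. Its co-chaperone Dnajb1 was also highest in sham mice 3 to 5, at 10.30, 11.17, 12.16, 11.93 and 11.66 and 10.19, 10.64, 10.03, 10.33 and 10.25, and changed by -1.16 ± 0.21 (SE, n = 5 against 5, adjusted p = 0.000973, -1.45 without sham mouse 1). With the 0 h arrays alone 1 of the 8, Hsp90aa1, passed. The cytosolic chaperone Hsp90aa1 was the one called member whose arms did not overlap, at 13.34, 13.12, 13.58, 13.45 and 13.83 and 12.73, 12.71, 12.58, 12.72 and 12.33. It changed by -0.85 ± 0.21 (SE, n = 5 against 5, adjusted p = 0.0129, -0.88 without sham mouse 1), was not called without SPIO mouse 5 (-0.78), and its other well-expressed probe sets differed by -0.32 and -0.25.

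The remaining called members were Hspa1b, with -2.04 (SE 0.53, adjusted p = 0.0199, -2.68 without sham mouse 1), Dnaja1, with -0.91 (SE 0.21, adjusted p = 0.00952, -1.10 without sham mouse 1), Dnajb4, with -0.51 (SE 0.12, adjusted p = 0.0124, -0.66 without sham mouse 1), Cacybp, with -0.65 (SE 0.19, adjusted p = 0.0458, -0.80 without sham mouse 1), and the Hsp70 co-chaperone Bag3, with -0.54 (SE 0.16, adjusted p = 0.0493, -0.69 without sham mouse 1). Hspa1a and Hspa1b are near-identical copies, and their probe sets may share transcripts. Dnaja1 was not called without SPIO mouse 5 (-0.79), nor Dnajb4 without sham mouse 3 (-0.45) or 5 (-0.43). Of the 10 fits that left out 1 mouse, Hspa1b passed in 5, Cacybp in 4 and Bag3 in 3. Hsph1 read 10.97, 10.90, 12.01, 11.80 and 13.19 in sham controls and 11.51, 11.43, 10.74, 11.01 and 10.43 in exposed mice, with sham mouse 5 far above the rest. The list averaged 9.90 to 11.02 in sham controls, with mouse 1 lowest, and 9.59 to 10.01 in exposed mice. Group means of the sham controls also moved over time, from 10.40 at 0 h to 9.76 at 6 h and 10.81 at 24 h. Those of the exposed mice were 9.81, 9.98 and 10.02. Of 29 unfolded protein response genes 1 was higher and 2 lower, while 27 had a log2 fold change below 0 (median -0.17, 1 higher and 3 lower without sham mouse 1). Their mean was 10.05 to 10.17 in sham controls and 9.94 to 9.98 in exposed mice, without overlap. Chac1, a glutathione-degrading enzyme, rose by 0.54 (SE 0.15, adjusted p = 0.0298, 0.52 without sham mouse 1), while Pdia3 changed by -0.36 (SE 0.09, adjusted p = 0.0215, -0.29 without sham mouse 1) and Atf4 by -0.31 (SE 0.09, adjusted p = 0.0338, -0.41 without sham mouse 1). Chac1 stayed past the threshold in 5, Pdia3 in 6 and Atf4 in 3 of the 10 fits that left out 1 mouse, and Pdia3 was lost without sham mouse 1. With the 0 h arrays alone none of the 3 passed.

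Promoters of the lowered chaperones and clock genes are shown because the factors known to act on these families bind short motifs near the start of transcription. RefSeq windows (GRCm38.p6, 250 bases before to 50 after each start) were found for 16 of the 18 called genes of the heat shock, clock and heme lists. Motifs were searched on both strands: GAANNTTC or TTCNNGAA for a heat shock element, CACGTG for an E-box bound by clock factors, and TGACNNNGC for an antioxidant element, and capitals mark them in the sequences. Positions count the start as 1 and the base before it as -1. Dnajb1 (chr8:83607925-83608224, strand +) holds an antioxidant element on the opposite strand from -15, Hspa1a (chr17:34972107-34972406, strand -) a heat shock element from -104, and Ciart (chr3:95882179-95882478, strand -) 3 E-boxes, while the windows of Alas1 held none of these letters.
Dnajb1: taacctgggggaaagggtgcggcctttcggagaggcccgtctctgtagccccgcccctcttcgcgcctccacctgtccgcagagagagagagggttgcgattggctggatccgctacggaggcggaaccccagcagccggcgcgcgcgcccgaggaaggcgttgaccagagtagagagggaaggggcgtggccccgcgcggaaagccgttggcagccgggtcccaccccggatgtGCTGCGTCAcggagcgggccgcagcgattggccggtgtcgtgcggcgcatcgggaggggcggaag
Hspa1a: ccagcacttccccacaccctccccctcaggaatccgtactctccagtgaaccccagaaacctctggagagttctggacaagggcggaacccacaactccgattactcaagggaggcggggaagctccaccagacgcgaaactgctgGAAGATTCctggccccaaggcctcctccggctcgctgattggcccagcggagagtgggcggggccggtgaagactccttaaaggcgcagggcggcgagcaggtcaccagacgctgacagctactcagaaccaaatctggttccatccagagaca
Ciart: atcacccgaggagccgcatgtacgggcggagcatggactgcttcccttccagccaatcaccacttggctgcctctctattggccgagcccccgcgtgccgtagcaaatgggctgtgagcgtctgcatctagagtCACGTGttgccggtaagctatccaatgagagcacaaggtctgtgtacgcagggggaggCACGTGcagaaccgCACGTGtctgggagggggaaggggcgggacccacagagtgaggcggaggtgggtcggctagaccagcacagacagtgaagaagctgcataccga

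A heat shock element was in a window of 14 of the 24 heat shock chaperones with one (58.3%), of 5 of the 7 called (71.4%), of 2171 of the 14452 tested genes with a window, and of 17.0% of all 27025 genes with one. Among called genes of any kind it was in 17.7% of those lower and 16.8% of those higher. E-boxes were in 5 of 18 clock genes (27.8%) and 4 of 16 heme turnover genes, against 10.2% of tested and 8.09% of all genes. Antioxidant elements were in 10 of 28 NRF2 list genes (35.7%) and 6 of 18 clock genes (33.3%), against 16.2% of tested and 14.0% of all genes. A match of letters is a description of the window and not a measured site.

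Circadian clock genes moved in both directions. Of 22 measured 2 were higher and 6 lower, with a median of -0.23 (2 higher and 6 lower without sham mouse 1, 1 higher and 4 lower by the methods' test), and 0 of these 8 passed with the 0 h arrays alone. Ciart, a repressor of the clock, read 6.99, 7.54, 6.71, 6.81 and 7.03 in sham controls and 6.51, 6.25, 6.13, 5.72 and 6.44 after SPIO, with no overlap. It changed by -0.80 ± 0.16 (SE, n = 5 against 5, adjusted p = 0.00242, -0.81 without sham mouse 1). Nr1d2, a nuclear receptor of the repressing arm, was almost constant in sham controls, at 11.91, 11.97, 11.96, 11.90 and 11.88. After SPIO it fell in order of mouse number, at 11.68, 11.48, 11.39, 11.04 and 10.66. Nr1d2 changed by -0.67 (SE 0.16, adjusted p = 0.0112, -0.68 without sham mouse 1), and by -0.52, not called, without SPIO mouse 5. Dbp, an output factor, was 10.86, 10.25, 9.72, 10.22 and 9.08 and 9.65, 9.16, 8.85, 8.0 and 7.53, again in order of exposed mouse number, so that SPIO mice 4 and 5 were lowest. Its change was -1.39 (SE 0.34, adjusted p = 0.0113, -1.18 without sham mouse 1), and -1.11, not called, without SPIO mouse 5. Also lower were Tef, at -0.39 (SE 0.11, adjusted p = 0.0324, -0.45 without sham mouse 1), Hlf, at -0.66 (SE 0.20, adjusted p = 0.043, -0.72 without sham mouse 1), and Nr1d1, at -0.94 (SE 0.28, adjusted p = 0.0452, -0.78 without sham mouse 1), and Nr1d1 was not called without sham mouse 1. The activating factors Npas2 and Arntl rose, Npas2 from 3.91, 3.93, 3.92, 3.75 and 4.03 to 4.24, 4.65, 4.64, 5.48 and 5.57, by 1.01 (SE 0.27, adjusted p = 0.0257, 1.01 without sham mouse 1), and Arntl by 0.93 (SE 0.27, adjusted p = 0.0353, 1.04 without sham mouse 1). Of the 10 fits that left out 1 mouse, Npas2 passed in 6, Arntl and Tef in 4, and Hlf and Nr1d1 in 3. Per1 overlapped, with a difference of -0.36 (SE 0.31, adjusted p = 0.568, -0.61 without sham mouse 1). The sources used here do not give the hour of the day at which each lung was taken.

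Outside the lists, the lowered genes with the largest changes and no overlap between the arms were of varied function. Klhl29, a Kelch-domain gene, read 7.60, 7.70, 7.68, 7.84 and 7.26 in sham controls and 7.08, 6.42, 6.15, 5.61 and 6.41 after SPIO and changed by -1.28 ± 0.29 (SE, n = 5 against 5, adjusted p = 0.00685, -1.29 without sham mouse 1). Fkbp14, an isomerase of the endoplasmic reticulum, went from 9.27, 9.98, 9.88, 9.82 and 9.39 to 9.06, 8.71, 8.45, 8.34 and 8.54, a change of -1.05 ± 0.23 (SE, n = 5 against 5, adjusted p = 0.00617, -1.15 without sham mouse 1). Coq10b, a mitochondrial coenzyme Q binding protein, was 9.59, 10.47, 10.42, 10.29 and 10.25 and 9.49, 9.46, 9.39, 9.33 and 9.15. Sham mouse 1 was the lowest sham control but above every exposed mouse, and the change was -0.84 ± 0.13 (SE, n = 5 against 5, adjusted p = 0.000116, -0.99 without sham mouse 1). Several metabolic genes were lower: Ppara, a receptor that drives fatty acid oxidation, at -1.06 (SE 0.24, adjusted p = 0.00606, -0.76 without sham mouse 1), Cth, which makes cysteine, at -0.77 (SE 0.18, adjusted p = 0.0104, -0.64 without sham mouse 1), Lpin1, a phosphatidate phosphatase, at -0.73 (SE 0.19, adjusted p = 0.0167, -0.83 without sham mouse 1), and Gbe1, the glycogen branching enzyme, at -0.73 (SE 0.14, adjusted p = 0.00202, -0.78 without sham mouse 1). Ppara was highest in sham mouse 1, at 8.36 against 6.37 to 7.21 in the other sham controls. Lpin1 was not called without sham mouse 2 (-0.57), and neither Ppara nor Lpin1 passed with the 0 h arrays alone. The noncoding RNA Lncpint changed by -1.15 (SE 0.29, adjusted p = 0.0147, -1.10 without sham mouse 1), and was not called without SPIO mouse 4 (-0.97). Sham means were highest at 0 h for Klhl29 (7.615, later 6.081 to 7.18) and Fkbp14 (9.669, later 8.097 to 9.338). Their exposed means at 0 h, 6.332 and 8.622, lay within the later ones, 5.882 to 6.884 and 8.343 to 9.069. Coq10b, Ppara, Cth, Lpin1, Gbe1 and Lncpint also had their highest sham mean at 0 h, as did Plxna2, Mn1 and Nipbl below. Nrcam, Rufy2 and Stat2 did not. The part of each arm in these changes was not tested.

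Others of this set were the adhesion and guidance genes Plxna2, at -0.96 (SE 0.23, adjusted p = 0.0113, -1.10 without sham mouse 1), which did not pass with the 0 h arrays alone, and Nrcam, at -0.81 (SE 0.20, adjusted p = 0.0112, -0.78 without sham mouse 1), the transcriptional regulator Mn1, at -0.72 (SE 0.17, adjusted p = 0.00952, -0.80 without sham mouse 1), Rufy2, at -0.89 (SE 0.20, adjusted p = 0.0059, -0.85 without sham mouse 1), and the cohesin loader Nipbl, at -0.84 (SE 0.18, adjusted p = 0.0043, -0.84 without sham mouse 1). Nipbl read 9.93, 9.88, 9.95, 10.02 and 9.71 in sham controls and 9.17, 8.87, 9.02, 9.23 and 8.98 after SPIO, but other well-expressed probe sets of the gene differed by -0.16, -0.08 and 0.09. Neither Nipbl nor Rufy2 passed with the mean of its probe sets. Stat2, which carries interferon signals to the nucleus, was 7.23, 6.84, 6.65, 6.97 and 6.82 and 6.49, 6.22, 6.04, 5.96 and 6.34 and changed by -0.69 ± 0.14 (SE, n = 5 against 5, adjusted p = 0.00318, -0.61 without sham mouse 1). It was the 1 called member, lower, of 23 interferon-stimulated genes (median 0.09), of which 3 were higher and 1 lower without sham mouse 1. On the raised side Ccn5, a secreted matricellular protein, read 7.36, 6.37, 7.28, 6.61 and 6.94 and 7.48, 7.93, 8.58, 8.83 and 9.0 and rose by 1.45 ± 0.31 (SE, n = 5 against 5, adjusted p = 0.00403, 1.56 without sham mouse 1). It was the 1 called member of 6 CCN genes, and the elastin crosslinking enzyme Loxl1, at 0.69 (SE 0.20, adjusted p = 0.0375, 0.84 without sham mouse 1), the 1 called of 31 matrix genes (median -0.18), past the threshold in 4 of the 10 fits that left out 1 mouse. Loxl1 was not called by the methods' test, and its other probe set differed by 0.08. Both counts stayed at 1 higher without sham mouse 1.

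Of 29 immediate early genes 1 was higher and 3 lower, with a median of -0.13 (1 higher and 5 lower without sham mouse 1, 1 higher and 1 lower by the methods' test). The nuclear receptor Nr4a1 read 7.76, 10.54, 9.20, 8.62 and 8.55 in sham controls, with mouse 2 highest and mouse 1 lowest, and 7.64, 8.16, 7.42, 7.66 and 7.72 after SPIO. It changed by -1.22 (SE 0.30, adjusted p = 0.0131, -1.51 without sham mouse 1), and by -0.81, not called, without sham mouse 2. Klf4 changed by -0.74 (SE 0.18, adjusted p = 0.0112, -0.83 without sham mouse 1), and by -0.61, not called, without sham mouse 2, and Nr4a2, at -0.73 (SE 0.21, adjusted p = 0.0372, -0.89 without sham mouse 1), stayed past the threshold in 1 of the 10 fits that left out 1 mouse. Dusp2, a MAP kinase phosphatase of lymphocytes, rose by 0.60 (SE 0.13, adjusted p = 0.00569, 0.60 without sham mouse 1) and did not pass with the 0 h arrays alone. Of 20 cold-inducible and splicing genes (1 higher and 5 lower without sham mouse 1, 1 higher and 3 lower by the methods' test) 1 was higher, the splicing factor Srsf5, by 0.69 (SE 0.16, adjusted p = 0.00877, 0.70 without sham mouse 1), and 4 were lower, Tra2a, Tra2b, Srsf3 and Prpf38b, with log2 fold changes from -0.60 for Tra2a to -0.28 for Prpf38b. Srsf3 was not called without sham mouse 1. Of the 10 fits that left out 1 mouse, Tra2a and Srsf3 passed in 3, Prpf38b in 4, and Tra2b in all but that without sham mouse 3, and none of these 5 genes passed with the 0 h arrays alone. Cirbp, the cold-inducible RNA-binding protein, was 6.93, 7.71, 7.14, 7.45 and 6.74 in sham controls and 8.33, 7.77, 8.78, 7.82 and 8.34 after SPIO, without overlap, and its difference of 1.02 (SE 0.32, adjusted p = 0.0602, 0.95 without sham mouse 1) did not pass. Of 24 glucocorticoid and fasting response genes limma and the methods' test called 0, with 3 at an unadjusted p under 0.05 and a median of -0.20, and without sham mouse 1 limma called 1 lower. In this list Fkbp5 read 10.01, 11.45, 10.99, 11.0 and 9.87 and 9.76, 9.41, 9.03, 9.44 and 9.50, with sham mice 2 to 4 highest and no overlap.

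**Figure D3:**
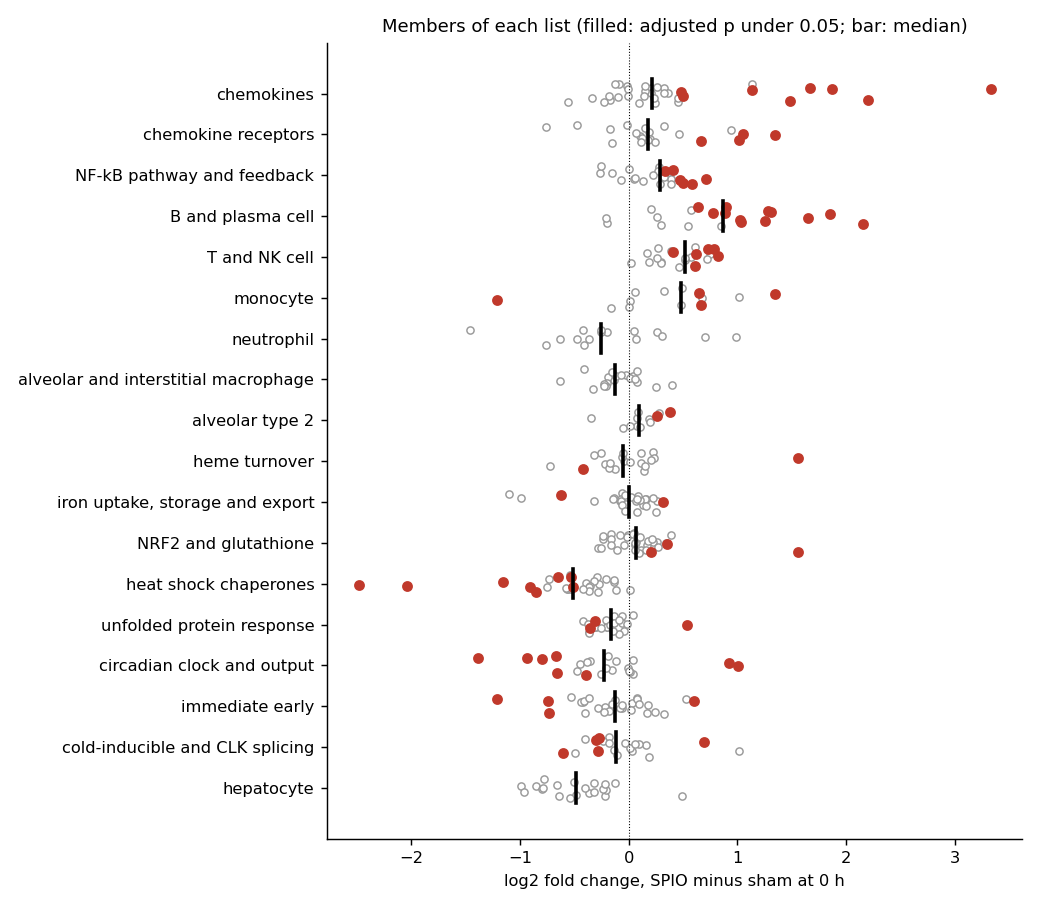
Log2 fold change of SPIO over sham at 0 h (x axis) for each measured member of 18 lists (rows), with filled red circles for genes at an adjusted p under 0.05, open circles for the others and a bar at the list median. B cell members lie to the right, with a median of 0.87, heat shock chaperones to the left, with a median of -0.51, and heme and iron lists around 0 apart from Hmox1, Tfrc and a few others.

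Of the markers of the lung's structural cells few passed. Of 12 alveolar type 2 markers 2 were higher, with and without sham mouse 1: Slc34a2, the phosphate transporter, from 13.23, 13.18, 13.10, 13.10 and 13.04 to 13.30, 13.28, 13.45, 13.46 and 13.48, by 0.26 (SE 0.06, adjusted p = 0.00591, 0.29 without sham mouse 1), and Lpcat1, which remodels surfactant lipid, by 0.38 (SE 0.10, adjusted p = 0.0218, 0.44 without sham mouse 1). Neither passed with the 0 h arrays alone, and Lpcat1 stayed past the threshold in 6 of the 10 fits that left out 1 mouse. Surfactant protein C (Sftpc) lay between 14.86 and 14.92 in both arms, at the top of the scale. In limma 0 were called of 11 alveolar type 1, 12 airway secretory, 11 ciliated and 14 endothelial markers, with 0, 0, 1 and 5 at an unadjusted p under 0.05, and the methods' test called 0 in each. Among the endothelial markers Kdr, a receptor of vascular endothelial growth factor, differed by 0.41 (SE 0.14, adjusted p = 0.0874, 0.50 without sham mouse 1) and passed without sham mouse 1, as did the carbonic anhydrase Car4 in the other direction (-0.33). The other 3 of these lists had 0 called without sham mouse 1 as well. Mesothelial markers all had a log2 fold change above 0, 14 of 14, with a median of 0.35 (0.26 without sham mouse 1). In limma 0 were called with all mice or without sham mouse 1, 3 were at an unadjusted p under 0.05, and the methods' test called 0. Upk3b, a uroplakin of mesothelial cells, differed by 1.37 (SE 0.76, adjusted p = 0.343, 1.03 without sham mouse 1), which did not pass. Their mean ranged over 7.09 to 8.52 in sham controls and 7.39 to 8.76 in exposed mice.

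Markers of tissues outside the lung varied widely from mouse to mouse. In limma and the methods' test 0 were called of 21 hepatocyte, 24 cardiac muscle, 24 skeletal muscle and 13 adipose markers, with 1, 1, 8 and 4 at an unadjusted p under 0.05, where 17.7% of all genes stood. Without sham mouse 1 limma called 0 in each. Their medians were -0.49, -0.87, -0.50 and -0.40 with all mice and 0.50, -0.71, -0.05 and 0.04 without sham mouse 1. Cardiac muscle markers averaged 5.91 to 9.03 in sham controls and 5.92 to 8.96 in exposed mice, so cardiac transcripts varied within both arms. The part of these tissues in the results above was not tested, beyond leaving out sham mouse 1.

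The effect at 0 h was then set against the effect at 6 h, each against its own time-matched sham controls, so a difference can come from either arm. At 6 h the 3 prime minus 5 prime difference was 0.39 to 0.53 in sham controls and 0.59 to 0.79 in exposed mice, without overlap. Beyond a fit with this difference as a covariate, the part of RNA quality in this comparison was not tested. The effects differed for 161 genes (0.885% of genes tested), with 62 of them higher at 0 h and 99 lower, and 102 of the 161 were also called at 0 h. The count was 323 without sham mouse 1 and 260 without SPIO mouse 1, and fell to 61 without SPIO mouse 3, 89 and 91 without sham mice 4 and 3, and 90 and 102 without SPIO mice 5 and 4. With the 3 prime to 5 prime covariate it was 72. No chemokine named here was among the 161. Cxcl5 was raised by 3.33 at 0 h and 3.31 at 6 h, Cxcl3 by 2.21 and 2.66, Cxcl1 by 1.87 and 2.38, and Ccl3 by 1.13 and 1.35, with adjusted p for the difference of 0.997, 0.71, 0.682 and 0.855. Of the 20 B and plasma cell markers 3 differed. The effect on Bank1 was 2.15 at 0 h and -0.30 at 6 h, a difference of 2.45 (adjusted p = 0.0195), that on Pou2af1 1.65 and -0.19 (adjusted p = 0.0386), and that on Tnfrsf13b 1.04 and -0.17 (adjusted p = 0.0354). The effect on Ccr6 went from 1.01 to -0.13 (adjusted p = 0.00567), and that on Btla from 1.11 to -0.35 (adjusted p = 0.0177). The Ccr6 mean was 6.705 at 0 h and 7.978 at 6 h in sham controls, and 7.717 and 7.849 in exposed mice. For Btla these means were 6.309 and 7.515 in sham controls, and 7.423 and 7.163 in exposed mice. Both genes thus moved more in the sham arm.

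Heat shock chaperones differed as well, with Hspa1a, Hspa1b, Dnaja1, Dnajb1, Dnajb4, Bag3 and Chordc1 past the threshold. Hspa1a had an effect of -2.49 at 0 h and 1.33 at 6 h, a difference of -3.81 (adjusted p = 0.00439), and Dnajb1 of -1.16 and 0.54 (adjusted p = 0.00139). Neither effect at 6 h passed on its own, and the effect on Hspa1a was -3.47 at 24 h and -2.39 at 48 h. The sham means of Hspa1a at 0, 6, 24 and 48 h were 11.05, 7.82, 11.88 and 9.94. Its exposed means were 8.56, 9.15, 8.405 and 7.56, so the sham groups moved more. Ciart showed -0.80 and 0.34 (adjusted p = 0.00567), and Nrcam -0.81 and 0.69 (adjusted p = 0.00198). Vnn1, pantetheinase, had the greater effect at the later time, with 0.55 at 0 h and 1.68 at 6 h (adjusted p = 0.0386). The smallest adjusted p of this comparison belonged to Igfbp4, an insulin-like growth factor binding protein, with -0.47 and 0.48 (adjusted p = 0.000308). The 6 h effects on Hmox1 (1.11), Tnip1 (0.37) and Tnfaip3 (0.61) were not shown to differ from those at 0 h.

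**Figure D4:**
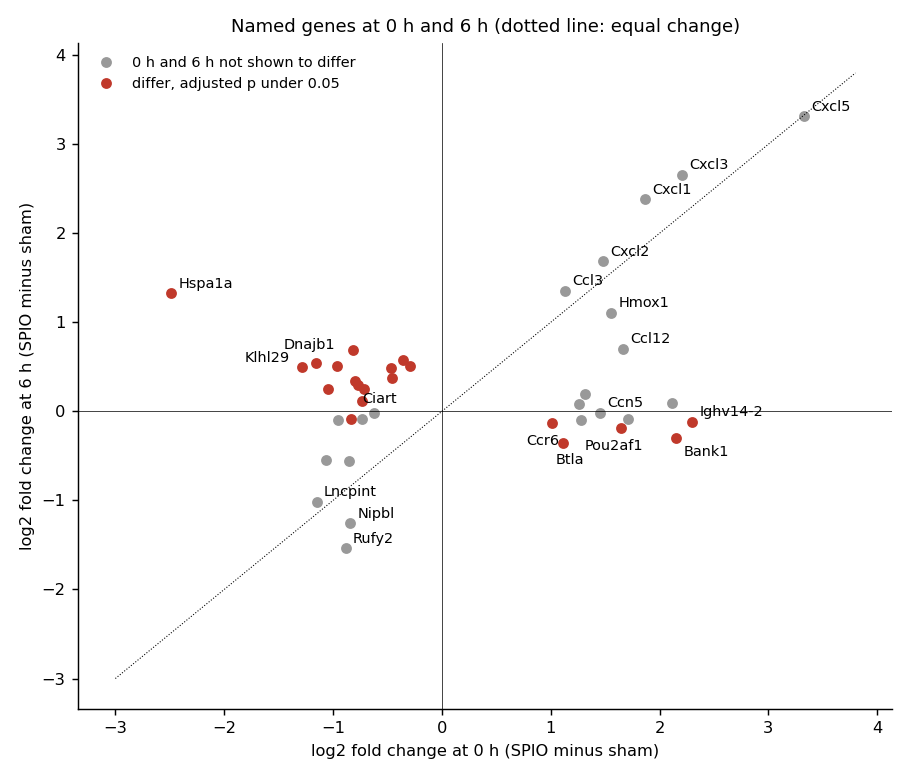
Log2 fold change of SPIO over time-matched sham at 6 h (y axis) against that at 0 h (x axis) for genes named by size, by the interaction tests or by list, with red points where the effects at 0 h and 6 h differed at an adjusted p under 0.05 and a dotted line of equal change. Chemokines and Hmox1 lie in the upper right, B cell genes along the horizontal axis, and Hspa1a, Dnajb1 and Ciart in the upper left.

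Against the mean effect of all later times, from 6 to 168 h, 8 genes differed (0.044%), 4 higher at 0 h and 4 lower, and 7 of them were called at 0 h. This count was 135 without sham mouse 1, 67 without SPIO mouse 1, 16 without sham mouse 5, and 5 without sham mouse 2 or SPIO mouse 5. Chosen after these values were seen, the full set is Ccnd3, Cxcl3, Hmox1, Igfbp4, Nectin3, Tfrc, Tnik and Vipr2. Hmox1 was raised by 1.56 at 0 h and by 0.04 on average later (adjusted p = 7.02e-06). It was higher at 6 h (1.11), lower at 24 h (-0.68), and not called from 48 h on. At 24 h the sham mean of Hmox1 was 8.768, above the 7.846 to 8.266 of the other sham groups. Its exposed mean at 24 h was 8.091, against 7.928 to 8.133 from 48 h on. Tfrc was lower at 0 h alone, and its mean later effect was 0.08 (adjusted p = 0.00511). Cxcl3 was raised at 0 and 6 h and not called later. Other genes stayed lowered on the probe set used: Nipbl and Rufy2 passed at all 6 times, with effects of -0.84 for Nipbl and -0.89 for Rufy2 at 0 h and of -1.46 and -1.46 at 168 h. Other probe sets of Nipbl changed little at 0 h, as given above. Those of Rufy2, all dimmer, differed by 0.205, 0.01 and -0.14 at 0 h. Hsp90aa1 passed at every time but 6 h, when its effect was -0.56, and Stat2 at every time but 6 h (-0.50). At 96 and 168 h the 3 prime minus 5 prime difference was also higher in every exposed mouse than in any sham control. At 168 h it was 0.56 to 0.78 against 0.41 to 0.52. The part of RNA quality in the later effects was not tested.

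**Figure D5:**
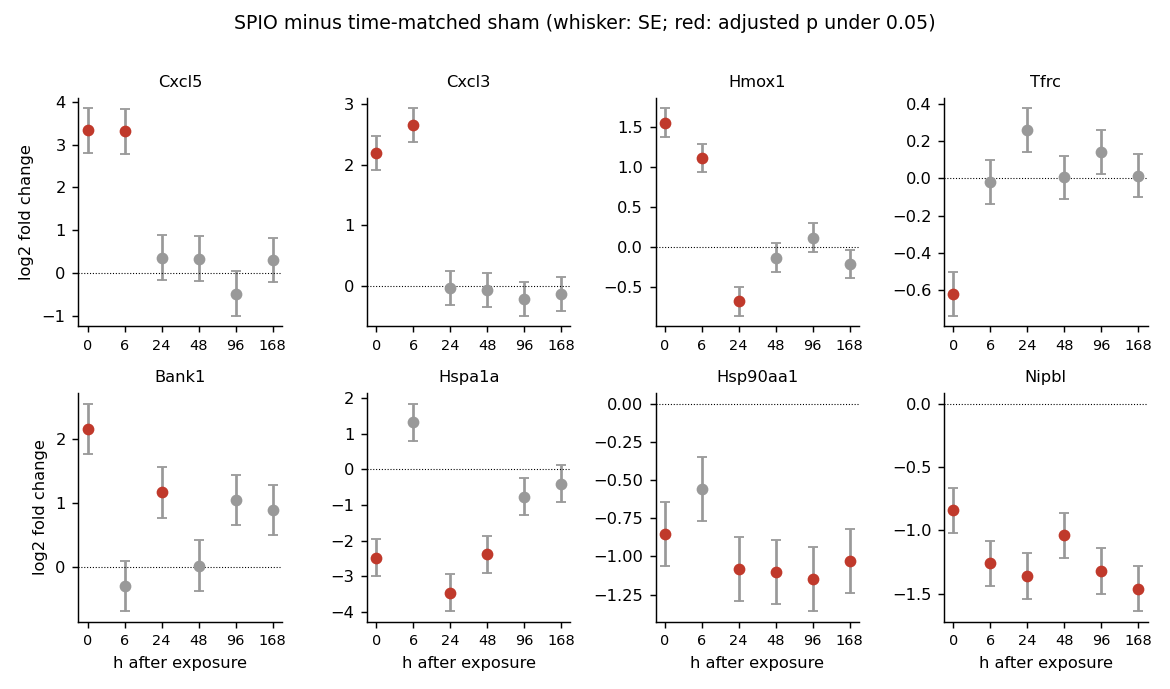
Log2 fold change of SPIO over time-matched sham (y axis, each panel on its own range) for 8 genes at 0, 6, 24, 48, 96 and 168 h after exposure (x axis, evenly spaced), with whiskers for the SE of the fit and red points at an adjusted p under 0.05. Cxcl5 and Cxcl3 are raised at 0 and 6 h, Tfrc is lowered at 0 h only, and the probe set used for Nipbl is lowered at all 6 times.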

How the data were processed

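Total RNA from the right diaphragmatic lobe of each mouse was labelled and hybridized to an Affymetrix mouse genome array, 1 mouse per array. The deposited values are log2 expression values that the authors obtained by robust multi-array averaging (RMA) over the arrays, per the labels and the study's methods. The sources used here give no RMA version, exposure day or hybridization batch. Of 45101 probe sets, 64 controls were left out of the tests, 34945 of the others had 1 gene symbol in the platform annotation, 932 had several and 9160 none. Only probe sets with 1 symbol were named, and the brightest of them on average across the 60 arrays stood for each of 18193 genes.

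Each exposed group was set against its time-matched sham controls in limma (version 3.58.1, R 4.3.3) with 1 linear model over the 12 groups of 5 arrays, lmFit and eBayes. Genes at a Benjamini-Hochberg adjusted p under 0.05 were called, with no minimum fold change. Contrasts between the effect at 0 h and that at 6 h, or the mean of the later effects, were tested in the same model. The number of arrays limits the precision. The methods' test, an analysis of variance for unequal variances with Tukey's test at 0 h, was an alternative, and others were the arrays fitted, the choice of probe sets, a filter on dim genes (a value of 6 in at least 5 arrays), normalization, moderation, array weights, a 3 prime to 5 prime covariate, a replicate block, a fold minimum of 1.5, and leaving out each mouse. The fitting step was tested on simulated data.

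Genes were grouped in 23 gene lists and 19 marker lists, of whose 864 symbols 795 were measured. An older name in a list was matched through RefSeq synonyms only where no current gene bears it. The members, lists and tests were chosen with earlier results of these data known. The genes named were the 15 highest and 15 lowest called with and without sham mouse 1 and without overlap (predicted transcripts passed over), up to 5 of smallest p in each list, the genes of the study's primer list with Ccl17, the 5 of smallest p in each contrast between times, and hepatocyte and sex chromosome markers. Other genes named, such as Cirbp, Cd72, Blk, Fcrl1, Tnfrsf13c, Cd3d, Hspa1b, Bag3, Cacybp, Hsph1, Arntl, Hlf, Nr1d1, Nfkbiz, Ccl2, Ccl24 and Cx3cl1, were chosen after their values were seen. Promoter windows come from RefSeq. Figures were drawn with matplotlib 3.10.9.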

Additional observations from a re-analysis of the deposited data

Results flagged for a closer look

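Of 104 groups of 5 values examined, 12 held a mouse that lay far from the other 4 of its group (Dixon's criterion). Chance gives about 1 in 20 for independent groups. These groups share the same mice and some were chosen by their values, so the 12 cannot be read against that rate. Several were sham mouse 1, with Bank1 at 6.12 (other sham controls 4.45 to 4.87), Ighv14-2 at 6.06 (4.71 to 5.00), Coq10b at 9.59 (10.25 to 10.47), and means of 6.48 for B and plasma cell markers (5.72 to 5.91), 9.76 for hepatocyte markers (4.73 to 5.15), 7.71 for skeletal muscle markers (4.97 to 5.55) and 8.50 for sex chromosome markers (6.91 to 7.08). SPIO mouse 3 was lowest for Cxcl5, at 6.85 (other exposed mice 8.47 to 9.05), and highest for Ighv14-2, at 8.39 (7.04 to 7.33). SPIO mouse 1 had a hepatocyte mean of 7.02 (4.89 to 5.46). Sham mouse 5 was low for Nrcam, at 6.86 (7.37 to 7.51), and for pancreas and gut markers, at 4.48 (4.65 to 4.71).

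Effects that differed between times were the other kind of result singled out, here the 5 of smallest p in each limma contrast. Between 0 h and 6 h, Igfbp4 differed by -0.95 (adjusted p = 0.000308), with an effect of -0.47 at 0 h and 0.48 at 6 h. Its fall at 0 h, -0.35 without sham mouse 1 and not called with the 0 h arrays alone, was seen with sham mouse 1 the highest of the sham controls, at 11.22 against 10.52 to 10.68. Tnik, a kinase of the Wnt pathway, differed by -1.47 (adjusted p = 0.000496), with -0.96 and 0.51. Zfp9, a zinc finger gene, differed by -0.80, Mtmr4, a lipid phosphatase, by -0.94 and Dido1 by -0.83, each with an adjusted p of 0.000433, and all 3 had an effect below 0 at 0 h and above 0 at 6 h. Against the mean of the later times, Hmox1 differed by 1.51 (adjusted p = 7.02e-06) and Cxcl3 by 1.77 (adjusted p = 0.00235). Lower at 0 h than later were Igfbp4, by -0.72 (adjusted p = 0.000305), Tnik, by -1.05 (adjusted p = 0.00377), and Tfrc, by -0.70 (adjusted p = 0.00511).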

How the results depend on the processing

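The 667 genes called at 0 h became 138 with the 10 arrays of 0 h fitted alone, 177 with a minimum change of 1.5-fold, 1158 after quantile normalization again, 1184 when all probe sets were tested, 1527 with array weights, and 290 to 782 when each mouse was left out. With the 0 h arrays alone and without sham mouse 1 together, a setting chosen after seeing the data, 350 passed. The 161 genes whose effect differed between 0 h and 6 h became 101 with those arrays fitted alone, 272 with the filter on dim genes, 281 after quantile normalization, 1037 with array weights, 72 with the 3 prime to 5 prime covariate, and 61 to 323 when each mouse was left out. The 8 that differed from the later times became 16 with all probe sets, 25 with the filter, 26 after quantile normalization, 18 with trend and robust moderation, 491 with array weights, 5 with the covariate, and 5 to 135 when each mouse was left out. A fold minimum removes small changes by definition, and the cause of the other shifts was not tested. The methods' test called 508 genes at 0 h. The mean of its probe sets turned the direction of Txnrd1, at -0.15.

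Replicate numbers did not pair the mice (correlations of same-numbered mice 0.06, -0.05, 0.08, -0.25 and -0.15), and a fit with the replicate block called 652, 167 and 7 genes in the 3 comparisons. Of 101 called genes named in the text, 48 were lost in at least 1 fit that left out a mouse. Of 36 with another probe set at a mean of 6 or more, 6 had one of opposite sign, Ccnd3, Dido1, Mtf1, Nipbl, Prpf38b and Txnrd1. In 14 of the 36, partly the same genes, another such probe set changed far less. Examples are Nfkbiz (0.50 against 0.08 and 0.12), Loxl1 (0.69 against 0.08) and Cx3cl1 (0.48 against 0.14). For Cxcl1, at 1.87, the others changed by 1.93 and 0.76. Normalization moved the median change of all genes between 0.03 and 0.04. Genes near the bottom of the scale, such as Cxcl3 in sham controls, are measured with compressed differences.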

Other observations

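Further pathways were read on the same arrays. Collagen VI genes, which build the microfibrils around lung cells, lay lower in every exposed mouse for Col6a1, at 9.62, 9.76, 9.74, 9.48 and 9.62 in sham controls and 9.36, 9.22, 9.42, 9.19 and 9.31 after SPIO, a difference of -0.34 (SE 0.12, adjusted p = 0.0874, -0.35 without sham mouse 1) that did not pass. Col6a2, at -0.36 (SE 0.13, adjusted p = 0.0985, -0.34 without sham mouse 1), and Col6a3, at -0.55 (SE 0.18, adjusted p = 0.0744, -0.45 without sham mouse 1), did not pass either. Of 22 hypoxia and glycolysis genes 1 was lower (median -0.07), and 2 were without sham mouse 1. Ankrd37, a target of hypoxia-inducible factor, read 7.07, 8.04, 8.98, 8.30 and 7.25 and 7.46, 6.85, 6.79, 6.41 and 6.86, with overlap at sham mice 1 and 5, and changed by -1.06 (SE 0.26, adjusted p = 0.0138, -1.27 without sham mouse 1). It was not called without sham mouse 3 or sham mouse 4, nor with the 0 h arrays alone.

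In limma 0 of 19 p53 targets passed, with 4 at an unadjusted p under 0.05 (17.7% of all genes) and a median of -0.06, and 2 were lower without sham mouse 1. Gadd45a, which responds to DNA damage, was 8.08, 8.71, 8.45, 8.24 and 8.04 and 7.95, 7.96, 7.86, 7.82 and 8.01, without overlap, at -0.39 (SE 0.12, adjusted p = 0.0555, -0.44 without sham mouse 1). Of 28 cell cycle genes 0 passed, with 4 at an unadjusted p under 0.05, and the proliferation marker Mki67 read 7.72, 6.38, 6.26, 5.97 and 6.51 and 6.35, 5.70, 6.03, 6.68 and 6.99. Likewise 0 passed of 17 acute phase, 7 EGF receptor ligand and 9 aryl hydrocarbon receptor genes (2, 1 and 1 at an unadjusted p under 0.05), and of 5 erythroid, 8 pancreas and gut and 4 sex chromosome markers (0, 1 and 0). The methods' test also called 0 in each of these lists, and without sham mouse 1 limma called 0 in each but the p53 targets. Nrg1, a ligand of the ERBB receptors, differed by 0.42 (SE 0.14, adjusted p = 0.0676, 0.38 without sham mouse 1), and haptoglobin (Hp), at 13.52, 13.64, 13.28, 13.23 and 13.48 and 13.44, 13.63, 13.55, 13.58 and 13.66, by 0.14 (SE 0.08, adjusted p = 0.374, 0.17 without sham mouse 1).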
